A study of Mus musculus with 4 samples.

Results

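The NADPH oxidases of the gut epithelium were followed here through 6 genes in cells sorted from crypts of the mouse small intestine. These were Nox1, its partner genes Noxo1, Noxa1 and Cyba, and the gene pair Duox2 and Duoxa2, out of 19938 genes measured. The 6 genes were listed by name and chosen by their measured values on these same 4 arrays, so that what follows is a description and no value of theirs was tested. Each had 1 probe set that names it alone, and each lay above the expression floor on all 4 arrays. The floor of an array is percentile 95 of 1207 genes of odorant, pheromone and trace amine receptors, taken as silent in gut. Levels are the deposited log2 values, and a difference of 1 on that scale is 2-fold.

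NADPH oxidases move electrons from NADPH across a membrane to oxygen. NOX1 releases superoxide. It needs the membrane partner p22phox, which Cyba encodes, the organiser NOXO1, the activator NOXA1 and the small GTPase RAC1, and it is best known from colonic epithelium. DUOX2 releases hydrogen peroxide at the apical surface and leaves the endoplasmic reticulum (ER) only with its maturation factor DUOXA2. It belongs to mucosal defence, and microbes and interferons are known to raise its expression.

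The adult mice carried villin-CreERT2, which is active in the whole intestinal epithelium, and Lgr5-EGFP-ires-CreERT2, which marks Lgr5 cells with EGFP. Tamoxifen was given to all of them over 2 days, and crypts were then taken. Control mice were Zip7flox/+ and so were expected to lose 1 copy of Slc39a7, which encodes ZIP7, a zinc transporter of the ER and Golgi. The Zip7 KO mice were Zip7flox/flox. From each genotype came 1 array labelled Lgr5-Hi and 1 labelled Lgr5-Med (Lgr5-Mid in the titles). There was thus 1 array per group, with no spread between animals, and neither the number of mice behind an array nor any sharing of mice between fractions is in the labels.

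The labels were checked first. Slc39a7 was at 8.92 and 9.02 for control and Zip7 KO under Lgr5-Hi and at 8.61 and 8.22 under Lgr5-Med, and whether its probes lie in the deleted part is unknown here. Lgr5 went against the fraction labels, with 7.79 and 7.93 for control and Zip7 KO under Lgr5-Hi and 10.97 and 11.24 under Lgr5-Med, so every direction between fractions is that of the library labels. Sex was confounded with genotype: Xist stood at 11.64 and 11.84 on the control arrays and at 5.59 and 5.43, under the floor, on those of Zip7 KO, whereas the Y-linked gene Eif2s3y was above the floor on the latter alone. All 7 epithelial markers were above the floor on all 4 arrays, with Epcam between 11.57 and 11.66.

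Nox1 was the member that differed most between genotypes. Under the label Lgr5-Hi it was measured at 6.42 in the control and 8.15 in Zip7 KO. Under the label Lgr5-Med the levels were 7.01 in the control and 8.99 in Zip7 KO. Both Zip7 KO arrays were therefore above both control arrays. The difference was 1.73 (3.32-fold) under Lgr5-Hi, where Nox1 ranked 6 of 11988 genes from the highest. It was 1.97 (3.93-fold) under Lgr5-Med, where it ranked 4 of 12243. Genes of the Y chromosome (Kdm5d, Uty and Eif2s3y), below the floor in the controls, hold all 3 places above it under Lgr5-Med and 3 of the 5 under Lgr5-Hi. The other 2 are Derl3, of ER-associated degradation, and the cystine transporter gene Slc7a11, also below the floor in the control. These ranks used the values as measured. With the floor in place, the differences under Lgr5-Hi were at least 0.99 for Slc7a11, 1.60 for Uty and 1.46 for Kdm5d, bounds under the value of Nox1. Under Lgr5-Med Kdm5d, at 1.52 or more, had such a bound. Those of Eif2s3y (1.87 and 2.01) and of Uty under Lgr5-Med (1.97) did not fall under it. On the control array labelled Lgr5-Hi, Nox1 was close to the floor of 6.25. With the floor at percentile 99 Nox1 lay below it on that array, and its difference became at least 1.35.

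Nox1 was the 1 member at least 2-fold higher in Zip7 KO under either label, where 0.25% of all genes were so under Lgr5-Hi and 0.0653% under Lgr5-Med. No member was at least 2-fold lower, where 0.234% and 0.621% of genes were. These shares stand beside a gene that was picked with this difference known and are not read further. Duoxa2, lower by 1.98-fold under Lgr5-Med, came close to that size.

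**Figure D1:**
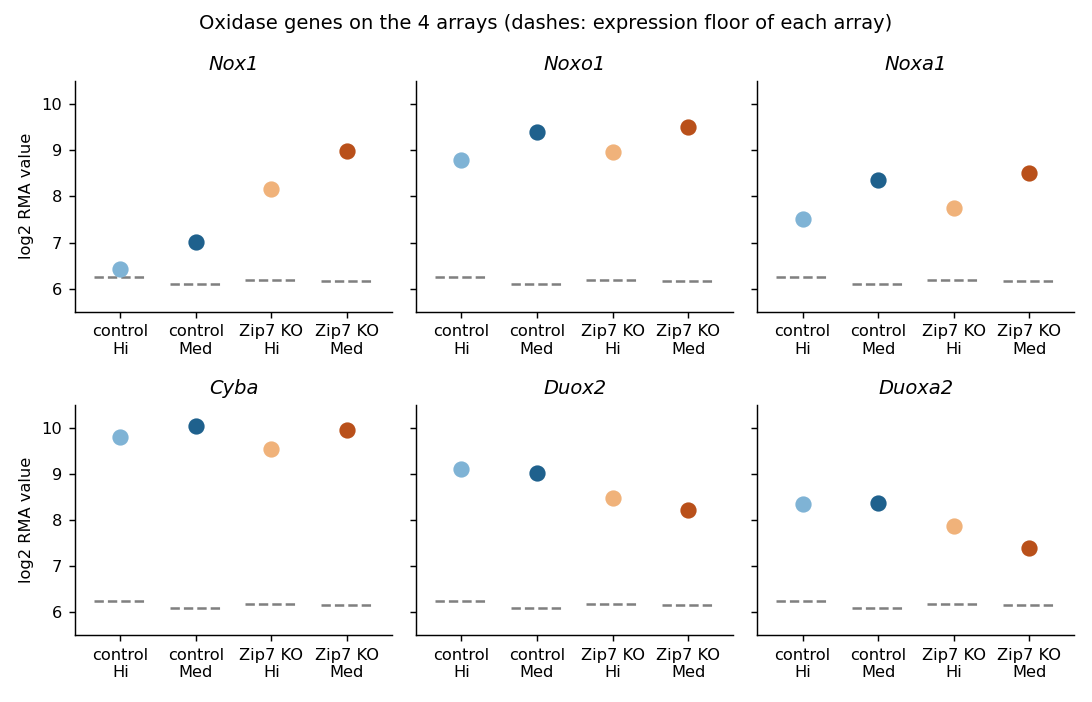
Levels of the 6 oxidase genes (vertical axis, log2 RMA value) on the 4 arrays, 1 point per array, with the expression floor of each array as a dashed line. Nox1 runs from 6.42 to 8.99 and is higher on both Zip7 KO arrays, while Duox2 and Duoxa2 are lower on both.

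The 250 bases before the Nox1 start are shown because Nox1 carries the largest difference of the set. They come from the RefSeq promoter table of GRCm38.p6 (chrX:134111855-134112104, minus strand). The arrays' own build is not stated in the labels. Capitals mark motif matches on either strand.
Nox1: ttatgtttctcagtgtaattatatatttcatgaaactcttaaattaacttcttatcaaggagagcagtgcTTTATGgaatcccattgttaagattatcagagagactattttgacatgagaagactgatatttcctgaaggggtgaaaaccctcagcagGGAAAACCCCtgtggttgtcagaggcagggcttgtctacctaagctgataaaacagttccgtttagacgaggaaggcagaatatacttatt
The capitals mark the letters CATAAA, bound by CDX factors of the gut epithelium, on the reverse strand from 180 to 175 bases before the start. They also mark an NF-kB motif from 91 to 82 bases before it. CATAAA occurred in 10.8% and the NF-kB motif in 7.25% of the 32851 promoter windows of this length in the table. Letters for ATF4 with C/EBP (TTGCNTCA), for the unfolded protein response element (TGACGTG), for STAT factors (TTCNNNGAA) and for AP-1 (TGANTCA) were not in this window. Nor was an ER stress response element. For GATA factors only the letters AGATAA were searched, and these were absent. The variant TGATAA was not searched and is present in the bases shown. A match is no evidence of binding, and a missing match says only that these letters are not in these bases.

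Nox1 lies on the X chromosome, and X-linked genes were compared because the genotypes differed in sex. Of 307 X-linked genes above the floor under Lgr5-Hi, Nox1 had the highest difference, and the other genes without Xist had a median of 0.05 and reached 1.02 at most (Nxf7). Under Lgr5-Med it again had the highest difference, of 315 genes, and the others without Xist had a median of 0.02 and reached 0.71. Of the 10 nearest measured neighbours, 5 on each side, 6 were at or below the floor on all 4 arrays and can show no change. The 3 above it on all 4 ran from 0.04 to 0.40 under Lgr5-Hi and from -0.17 to 0.34 under Lgr5-Med, with Tspan6, a tetraspanin, the highest under both labels. Cstf2, the adjacent gene and a cleavage factor of mRNA 3′ ends, differed by 0.05 and 0.07.

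**Figure D2:**
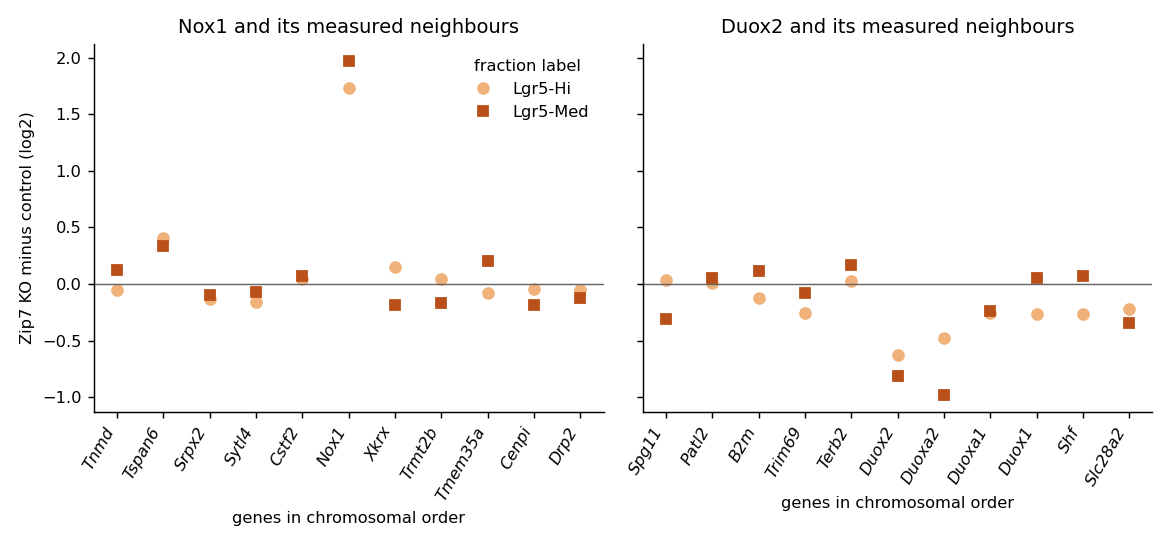
Zip7 KO minus control (vertical axis, log2) for Nox1 and Duox2 and the 5 nearest measured genes on each side, in chromosomal order without distances, with circles for Lgr5-Hi and squares for Lgr5-Med. Genes at or below the floor on all arrays are drawn too (6 around Nox1, 4 around Duox2). Nox1 stands at 1.73 and 1.97 among neighbours of 0.40 or less, and Duox2 stands with Duoxa2 beside it.

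The partners of NOX1 differed far less between genotypes than Nox1 itself. Noxo1, the organiser subunit, was at 8.78 and 8.97 for control and Zip7 KO under Lgr5-Hi and at 9.39 and 9.50 under Lgr5-Med, which are differences of 0.19 and 0.11. Noxa1, the activator subunit, was at 7.51 and 7.76 under Lgr5-Hi and at 8.35 and 8.51 under Lgr5-Med, or 0.24 and 0.17. For these subunits the array with the other fraction label lay farther away than the array of the other genotype. Cyba, the p22phox gene that NOX1 shares with other oxidases, was at 9.80 and 9.54 under Lgr5-Hi and at 10.03 and 9.96 under Lgr5-Med. Its differences were -0.26 and -0.07, the latter turning to 0.00 (0.0005) after median centring. All 6 of these differences lay within the central 95% of genes, which ran from -0.43 to 0.45 under Lgr5-Hi and from -0.54 to 0.36 under Lgr5-Med.

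Duox2 and Duoxa2 were lower in Zip7 KO under both labels. Duox2, the peroxide-producing oxidase, was at 9.11 in the control and 8.48 in the Zip7 KO array labelled Lgr5-Hi, and at 9.03 and 8.21 under Lgr5-Med. Duoxa2, its maturation factor, was at 8.36 and 7.88 under Lgr5-Hi and at 8.37 and 7.38 under Lgr5-Med. For both genes the control arrays were close to each other and above both Zip7 KO arrays, of which the one labelled Lgr5-Med was the lowest. Duox2 differed by -0.63 and -0.82, or 1.55-fold and 1.76-fold lower, and Duoxa2 by -0.48 and -0.98, or 1.39-fold and 1.98-fold lower. All 4 values lay below the central 95% of genes. Counted at 1.5-fold, 2 members were apart under Lgr5-Hi (Nox1 and Duox2), where 2.01% of genes were, and 3 under Lgr5-Med (Nox1, Duox2 and Duoxa2), where 2.52% were.

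**Figure D3:**
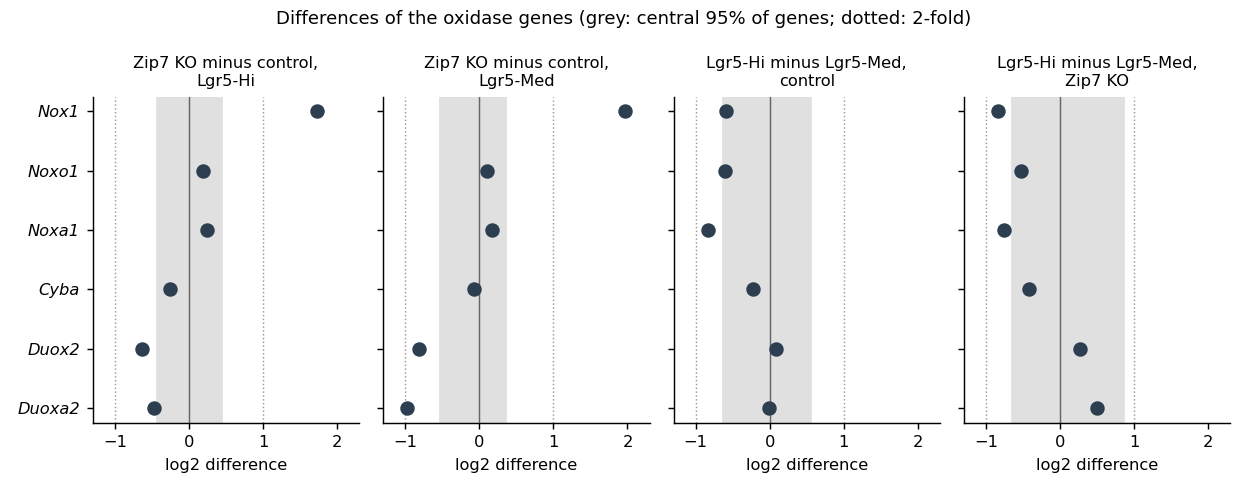
Differences of the 6 genes (horizontal axis, log2) in the 4 comparisons, each of 1 array against 1 array, with the central 95% of genes in grey and 2-fold as dotted lines. Nox1 passes 2-fold in both genotype comparisons, and Duox2 and Duoxa2 lie left of the grey band there.

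Duox2 and Duoxa2 are neighbours on chromosome 2 and are read from opposite strands away from each other, with 673 bases between the starts used in the RefSeq table. The 250 bases before each start are shown because the pair was lower together (GRCm38.p6, chr2:122298228-122298477, minus strand, and chr2:122298650-122298899, plus strand). The windows share 0 bases.
Duox2: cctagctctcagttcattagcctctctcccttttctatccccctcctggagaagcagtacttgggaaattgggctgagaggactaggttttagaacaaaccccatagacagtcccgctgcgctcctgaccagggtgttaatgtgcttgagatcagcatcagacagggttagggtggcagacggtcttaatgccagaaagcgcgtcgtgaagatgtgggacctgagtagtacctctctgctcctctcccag
Duoxa2: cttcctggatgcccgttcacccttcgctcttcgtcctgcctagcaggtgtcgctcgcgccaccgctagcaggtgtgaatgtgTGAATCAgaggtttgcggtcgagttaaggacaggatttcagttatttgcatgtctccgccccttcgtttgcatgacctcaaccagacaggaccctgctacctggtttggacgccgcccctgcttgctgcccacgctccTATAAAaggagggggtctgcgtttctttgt
In the Duoxa2 window the capitals mark TGAATCA, from 168 to 162 bases before the start. It matches TGANTCA, the letters searched for AP-1, only because any base was allowed at N. That pattern, though not the marked stretch itself, reads the same on both strands. Capitals also mark a TATA box (TATAAA) from 30 to 25 bases before the start. The patterns TGANTCA and TATAAA occurred in 6.75% and 12.4% of promoter windows. The Duox2 window held none of the motifs searched, and neither window held the interferon-response letters GAAANNGAA, found in 7.13% of windows, or the STAT letters, found in 7.02%. Of the other 9 neighbours of Duox2, 4 were above the floor on all 4 arrays and ran from -0.26 to 0.03 under Lgr5-Hi and from -0.35 to 0.11 under Lgr5-Med, and 4 were at or below it on all 4. The 9 included the paralogue Duox1, at or below the floor on all 4 arrays, and its maturation factor Duoxa1, above it on 1 array.

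Duox2 and Duoxa2 also had a like shape and range over the 4 arrays. Each gene was centred on its own mean and compared by Euclidean distance with the 12403 other genes above the floor on at least 1 array. Duoxa2 was number 18 in nearness to Duox2, at a distance of 0.17, and Duox2 was number 14 for Duoxa2. The 5 genes nearest to Duox2 were Psmb8 and Psmb9, catalytic subunits of the immunoproteasome, Slfn4, a Schlafen family gene, Cmpk2, a mitochondrial nucleotide kinase, and Trafd1, a regulator of innate immune signalling. Their distances ran from 0.04 to 0.10, and Psmb8 was at 8.96, 8.91, 8.39 and 8.08 in the control Lgr5-Hi, control Lgr5-Med, Zip7 KO Lgr5-Hi and Zip7 KO Lgr5-Med arrays. The 5 nearest to Duoxa2, listed after their values were seen, were of another kind: Dgat2, an enzyme of triglyceride synthesis, Aldh1l1, of folate metabolism, Gpt, an alanine aminotransferase, Tgfbi, a matrix protein, and Pck1, of gluconeogenesis, at 0.03 to 0.07. Over 4 arrays such a likeness is a description and says nothing of shared control.

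No gene came as near to Nox1. The values were not scaled, so these distances also grow with a gene's range over the arrays. That range was 2.57 for Nox1 and 0.90 for Duox2, and distances from the 2 genes do not compare likeness of shape alone. The nearest to Nox1 was Sema7a, a membrane-anchored semaphorin, at a distance of 0.79. Sema7a was at 7.14 and 8.22 for control and Zip7 KO under Lgr5-Hi and at 8.17 and 9.48 under Lgr5-Med. It was followed by Srsy, Bcl6, Rbm12b2 and Kdm5d. Srsy and Kdm5d are Y-linked and lay below the floor on both control arrays, so their distances rest in part on values not above background and follow the sex difference between the genotypes. Bcl6, a transcriptional repressor, was at 1.08. Bcl6 was higher in Zip7 KO by 1.02 and 0.97. The partners Noxa1 and Noxo1 came at numbers 335 and 667 in nearness to Nox1, whereas at a distance of 0.24 Noxo1 was number 98 for Noxa1 and Noxa1 number 501 for Noxo1.

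Between fractions, Nox1, Noxo1 and Noxa1 were lower under the label Lgr5-Hi in both genotypes. In controls Lgr5-Hi minus Lgr5-Med was -0.60 for Nox1, -0.60 for Noxo1 and -0.83 for Noxa1. In Zip7 KO the same differences were -0.84, -0.53 and -0.76. All 3 genes were thus higher on the arrays with more Lgr5 transcript, in both genotypes. Cyba followed with -0.23 and -0.42. With the floor at percentile 99 the control difference of Nox1 was -0.21 or lower, its value under Lgr5-Hi then being below the floor.

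Duox2 and Duoxa2 did not share that direction. Duox2 was higher under Lgr5-Hi by 0.08 in controls and 0.27 in Zip7 KO, and Duoxa2 differed by -0.01 and 0.49, the former being above 0 after quantile normalisation, median centring or removal of a trend with level (0.04 to 0.07). No member was 2-fold apart between fractions, where 1.19% of genes were in controls and 2.63% in Zip7 KO. At 1.5-fold 3 members were apart in controls (Nox1, Noxo1 and Noxa1), where 5.45% of genes were, and 2 in Zip7 KO (Nox1 and Noxa1), where 9.46% were. Over all genes 43.3% were higher under Lgr5-Hi in controls (55.5% after median centring).

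The fractions also differed in cell type markers. All 5 stem cell markers were lower under Lgr5-Hi in both genotypes, with summed linear levels of 9255 against 17658 in controls and 8122 against 19808 in Zip7 KO. The 5 goblet markers were all higher there, with sums of 33791 against 15871 and 33393 against 11457, and so were the 5 Paneth markers, with 24221 against 16415 and 18753 against 9156. In sorted bulk cells, fewer cells of a type and less RNA per cell cannot be told apart. The part of these marker differences in the oxidase values was not tested.

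Other genes of the NADPH oxidase family offered no counterpart to Nox1. Of 15 listed, 14 had a probe set of their own and 7 were above the floor on at least 1 array. The oxidase genes Nox3, Nox4, Cybb and Duox1, the phagocyte subunits Ncf1 and Ncf4, and Nrros, a negative regulator of the phagocyte oxidase, were at or below it on all 4. Under Lgr5-Hi 3 of 6 compared were higher in Zip7 KO, with a median of -0.01, and under Lgr5-Med 2 of the 5 above the floor on both arrays, with a median of -0.03. Duoxa1 and Sh3pxd2a were below the floor in Zip7 KO there, so the sign of their differences is not determined. As measured, 2 of 7 were higher, with a median of -0.03. None was 2-fold apart. Rac1, the GTPase that activates NOX1, was between 11.56 and 11.67 on all arrays and differed by 0.11 and 0.04. Rac2 differed by -0.21 and -0.03 and Rac3 by 0.17 and -0.26. The organiser homologue Sh3pxd2b differed by -0.05 and -0.21 and the oxidase chaperone Cybc1 by 0.01 and 0.11. Sh3pxd2a, another organiser homologue, differed by -0.04 under Lgr5-Hi. Duoxa1 was above the floor in the control array labelled Lgr5-Med alone, at 6.13.

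Enzymes that remove superoxide and hydrogen peroxide did not differ by 2-fold between genotypes. Of 19 compared under Lgr5-Hi 13 were higher in Zip7 KO, with a median of 0.05, and of 18 under Lgr5-Med 11 were, with a median of 0.02 that quantile normalisation turned to -0.02. Over all genes the median was 0.02 under Lgr5-Hi, with 55.0% of genes higher (45.3% after quantile normalisation). It was -0.03 under Lgr5-Med, with 44.1% higher (59.1% after median centring). The superoxide dismutase Sod1 differed by -0.04 and 0.11, the mitochondrial Sod2 by 0.14 and -0.13 and catalase, Cat, by 0.13 and 0.00, these 3 being named for their function after their values were seen. The summed linear level of the list was 42025 and 43539 for control and Zip7 KO under Lgr5-Hi and 42159 and 43534 under Lgr5-Med.

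Genes that answer to interferon were lower in Zip7 KO together with Duox2. Of the interferon list 14 genes were above the floor on both arrays under each label, and all 14 were lower in each, with medians of -1.14 and -1.21. At least 2-fold lower were 8 and 10. Over all genes 45.0% and 55.8% were lower, and 0.234% and 0.621% were at least 2-fold lower. A further 3 and 4 genes of the list were above the floor in the control alone and have only a bound in Zip7 KO. Earlier results of these arrays on interferon genes were known when this list was made, so it is no independent evidence of its direction. Oas2 and Oasl2, genes of the oligoadenylate synthetase family, were at -1.94 and -1.76 under Lgr5-Hi and at -1.34 and -1.78 under Lgr5-Med. Among the factors tied to oxidase promoters, Irf9, a subunit of the interferon-activated complex ISGF3, differed by -0.63 and -0.93, and Irf1, an interferon-induced factor, by -0.44 and -0.75. Duox2, at -0.63 and -0.82, lay between these medians and the highest of the 14 values, -0.47 and -0.56, both of the RNA sensor gene Ifih1.

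The rest of those transcription factors differed less. Of all 14 compared, Irf9 and Irf1 included, 8 were lower in Zip7 KO under Lgr5-Hi, with a median of -0.06. There 45.0% of all genes were lower. Under Lgr5-Med 12 of the 14 were lower, with a median of -0.18, where 55.8% of all genes were. Under Lgr5-Hi the count was 11 after quantile normalisation and 10 after median centring. The list holds GATA and CDX factors, HNF4A, STAT3, NF-kB and AP-1 subunits, and Irf9 is also a member of the interferon list. Irf9 and Irf1 were the farthest from 0, and no factor was 2-fold apart in either genotype comparison.

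Epithelial genes that respond to microbes gave a mixed picture. Reg3b and Reg3g, secreted lectins that bind bacteria, were lower in Zip7 KO, with differences of -2.36 and -1.29 under Lgr5-Hi and -3.16 and -2.03 under Lgr5-Med. The ribonuclease Ang4 was at -0.74 and -1.28, and the cytokine Il18 at 0.22 and -0.75. Of 17 genes compared 10 were lower under Lgr5-Hi and 14 under Lgr5-Med, with medians of -0.03 and -0.34. Lcn2 was below the floor in Zip7 KO under Lgr5-Med. Of the 16 genes above the floor on both arrays there, 13 were lower, with a median of -0.31. Over all genes 45.0% and 55.8% were lower. The listed genes at least 2-fold lower numbered 2 and 3, where 0.234% and 0.621% of all genes were, and none was 2-fold higher. The serum amyloid genes Saa1, Saa2 and Saa3 were at or below the floor on all 4 arrays.

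**Figure D4:**
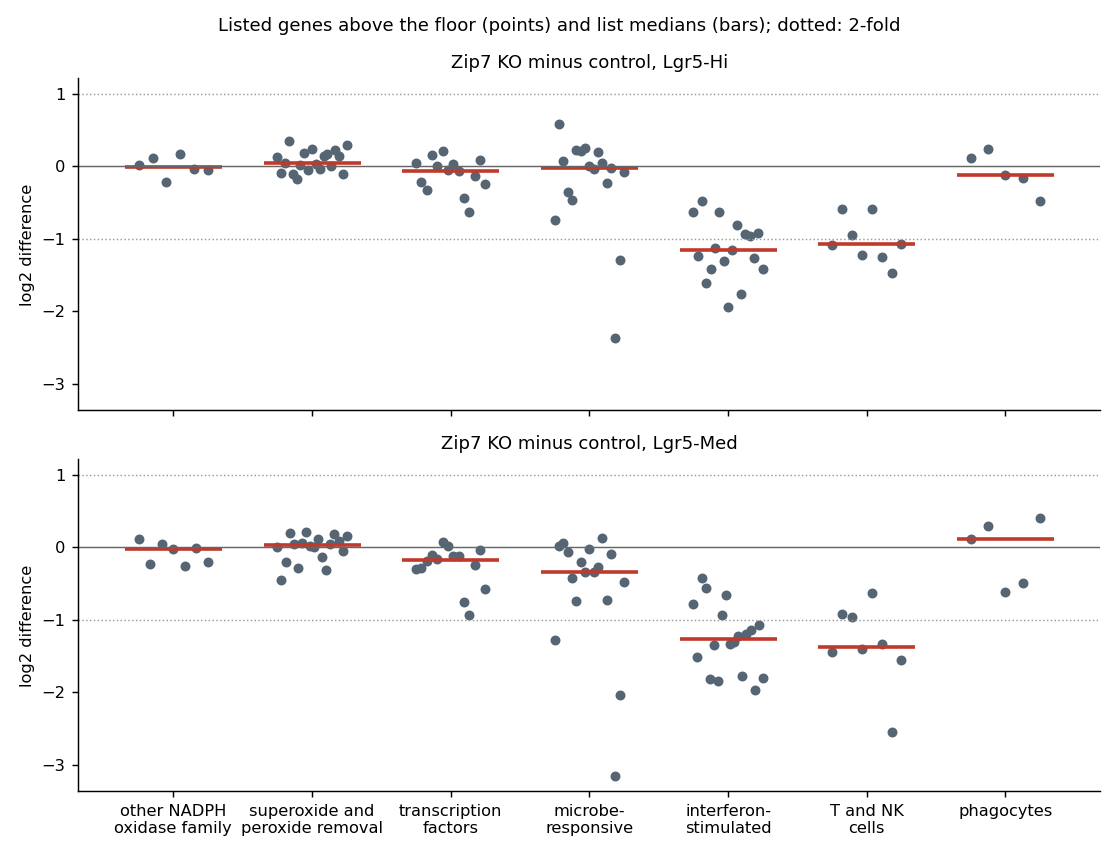
Zip7 KO minus control (vertical axis, log2) for the genes of 7 lists above the floor on either array, 1 point per gene with the list median as a red bar, under Lgr5-Hi (top) and Lgr5-Med (bottom). The interferon list and the T and NK cell markers have medians below -1, and the oxidase family and the removal enzymes have medians near 0.

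Markers of T and NK cells were lower in Zip7 KO, as Duox2 and Duoxa2 were. For Lgr5-Hi minus Lgr5-Med their medians were -0.45 in controls and -0.22 in Zip7 KO. Duox2 was at 0.08 and 0.27 there and Duoxa2 at -0.01 and 0.49. Paneth markers had medians of 0.99 and 1.33 in the same comparisons, and enterocyte markers 0.04 and 0.47. All 8 T and NK cell markers were lower in Zip7 KO under both labels, where 45.0% and 55.8% of all genes were lower. Their medians were -1.08 and -1.37, and the cytotoxic granule protease Gzmb differed by -1.47 and -2.55. Their summed linear level was 2591 and 1216 for control and Zip7 KO under Lgr5-Hi and 3711 and 1358 under Lgr5-Med. On the control arrays all 8 were above the floor, and on each Zip7 KO array Cd3g alone was not. All 5 Paneth markers were lower too, with medians of -0.93 and -1.47. Ang4 is among them and also in the list of microbe-responsive genes. Of 8 enterocyte markers 4 were lower under Lgr5-Hi and 8 under Lgr5-Med, with medians of 0.00 (-0.0037) and -0.51. The alkaline phosphatase gene Alpi was at 0.33 and -0.65 and the peptidase Enpep at 0.12 and -0.83. The part of these cell types in the Duox2 and Duoxa2 values was not tested.

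Markers of phagocytes, which carry an oxidase of their own, and of colonic epithelium were checked beside Nox1. Of 10 phagocyte markers 2 of 5 compared were higher in Zip7 KO under Lgr5-Hi and 3 of 5 under Lgr5-Med, with medians of -0.13 and 0.11. Over all genes 55.0% and 44.1% were higher. The summed level of the phagocyte markers was 2171 and 2089 for control and Zip7 KO under Lgr5-Hi and 1726 and 1487 under Lgr5-Med. Each sum included 5 or 6 genes at or below the floor. Lyz2 was the highest of the 10 on every array and differed by -0.16 and -0.62 between genotypes. Cybb, Csf1r, Adgre1 and S100a8 were at or below the floor on all 4 arrays. All 5 markers of colonic epithelium with a probe set were at or below the floor on all 4 arrays as well.

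**Figure D5:**
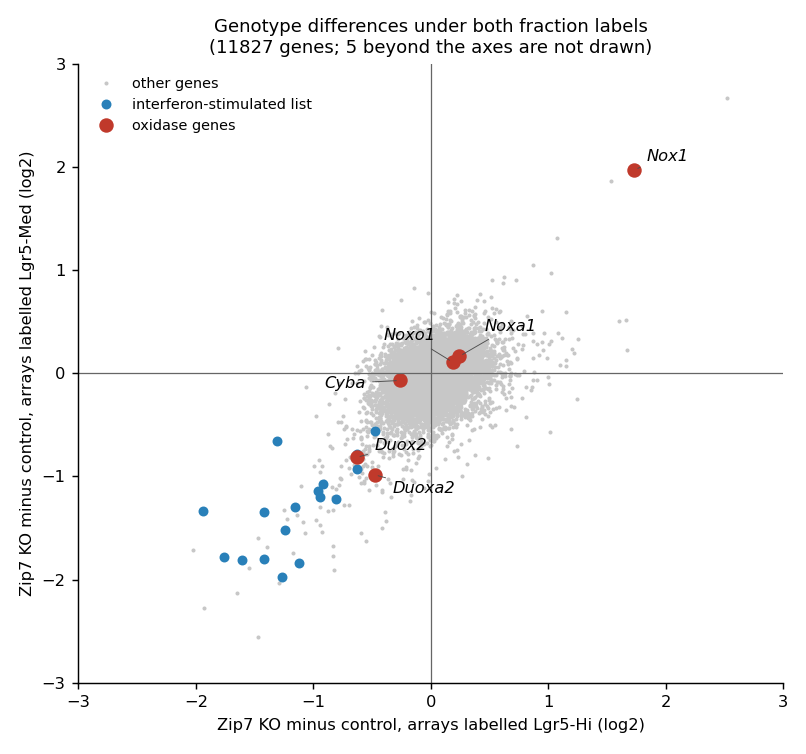
Zip7 KO minus control (log2) under Lgr5-Hi (horizontal axis) and Lgr5-Med (vertical axis) for 11827 genes above the floor in both comparisons, with 5 beyond the axes not drawn, interferon-stimulated genes in blue and the 6 oxidase genes in red. Nox1 lies at 1.73 and 1.97 apart from most genes, Noxo1, Noxa1 and Cyba lie in the central cloud, and Duox2 and Duoxa2 lie below the cloud.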

How the data were processed

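Gene expression was measured on 4 Affymetrix arrays of sorted mouse crypt cells, 1 per group. The authors deposited log2 values per probe set made with RMA, as the submitters' processing notes name it. The log base was taken from the values, which ran from 3.08 to 14.6, and software and annotation are not stated in the labels. Of 35557 probe sets, 21789 name 1 gene symbol in the platform's annotation and were used, and 1621 name several. The gene level was that of the probe set with the highest mean, which gave 19938 genes.

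A gene was compared if it was above the floor on either array, and a named gene's value at or below the floor was replaced by the floor. There were 4 comparisons of 1 array against 1 array, with no test and no p-value, and counting functions were tested on simulated data. The number of arrays limits the precision. The members and the 16 gene lists were chosen with earlier results of these data known. Named were the 6 members, genes of the lists at least 2-fold apart (up to 6 a list, otherwise the 2 farthest apart) and the rest of the oxidase family. The 5 genes nearest to Nox1 and to Duox2 in centred, unscaled values were named too. Neighbouring genes were added by position. Of the genes so eligible, only some are printed. Alternatives were the mean of a gene's probe sets, floors at percentiles 90 and 99, quantile normalisation, median centring, removal of a lowess trend (fraction 0.3) and a count at 1.5-fold. Chromosomes and promoters came from RefSeq tables of GRCm38.p6. Python 3.11.15, pandas 2.3.3 and statsmodels 0.14.6 were used.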

Additional observations from a re-analysis of the deposited data

Results flagged for a closer look

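Differences of opposite sign in the 2 arms of a contrast were singled out among the members and the genes eligible for naming, and none of them was tested, since each arm is 1 array against 1 array. Duoxa2 was lower in the array labelled Lgr5-Hi than in that labelled Lgr5-Med in controls, at -0.0136, and higher in Zip7 KO, at 0.49. That first value changes sign with the scaling. Between fractions, in controls and in Zip7 KO, Gzmb was at -0.83 and 0.25, Irf9 at -0.0753 and 0.22, and Zbp1, a sensor of Z-form nucleic acids, at -0.0149 and 0.36.

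Between Zip7 KO and control, Rac3 differed by 0.17 under Lgr5-Hi and -0.26 under Lgr5-Med. The cytokine gene Il18 was at 0.22 and -0.75. Of epithelial genes, Alpi was at 0.33 and -0.65, Enpep at 0.12 and -0.83, Vil1, the gene of villin, at 0.0207 and -0.30, the stem cell marker Olfm4 at -0.20 and 0.22, and the goblet cell gene Clca1 at 0.45 and -0.38. Vim, which encodes vimentin and was listed with the stromal and vessel markers, was at -0.18 and 0.18.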

How the results depend on the processing

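Of 144 alternative values of the 24 member differences, 142 moved by under 0.1 on the log2 scale. Both exceptions came from the floor at percentile 99, which put Nox1 of the control array labelled Lgr5-Hi below the floor. Its difference between genotypes under Lgr5-Hi was then at least 1.35, and that between fractions in controls -0.21 or lower. Signs turned for 2 differences. Cyba between genotypes under Lgr5-Med went from -0.07 to 0.0005 under median centring, and Duoxa2 between fractions in controls went from -0.01 to 0.04, 0.06 and 0.07 under quantile normalisation, median centring and removal of the trend. Counted at 1.5-fold in place of 2-fold, the members apart numbered 2 and 3 between genotypes under Lgr5-Hi and Lgr5-Med, and 3 and 2 between fractions in controls and Zip7 KO. Every member has 1 probe set, so the mean of probe sets changed none of their values. Over all genes, median centring moved the 2-fold split between fractions in controls from 82 higher and 64 lower to 106 and 49, and no scaling moved the median of all genes by more than 0.07. With 1 array per group, no difference has an error.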

Other observations

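Of 3 peroxidases and peroxide channels compared, 1 was 2-fold apart between fractions in controls and 2 were in Zip7 KO. Of 19 removal enzymes compared, 1 was 2-fold apart between fractions in each genotype. Over all genes 1.19% were so in controls and 2.63% in Zip7 KO. No gene of either list was 2-fold apart between genotypes. Pxdn, the peroxidase that crosslinks collagen IV, was lower in the array labelled Lgr5-Hi with differences of -1.13 in controls and -1.48 in Zip7 KO, and higher in Zip7 KO by 0.42 and 0.77 under Lgr5-Hi and Lgr5-Med. Aqp1, a water channel, was lower under Lgr5-Hi, at -0.82 and -1.05, and lower in Zip7 KO, at -0.57 and -0.33. Gpx3, a secreted glutathione peroxidase, ran the other way, higher under Lgr5-Hi by at least 2.18 in controls and at least 1.95 in Zip7 KO, its value under Lgr5-Med being below the floor in both genotypes. Of the 8 peroxidases and channels with a probe set, Mpo, Epx, Lpo, Aqp8 and Aqp9 were at or below the floor on all 4 arrays. Stromal and vessel markers had medians of -0.18 and 0.07 between genotypes under Lgr5-Hi and Lgr5-Med, the latter turning to -0.0082 after quantile normalisation, stem cell markers medians of -0.14 and -0.06, the latter turning to 0.0063 after median centring, and goblet markers medians of -0.05 and -0.38.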
